A study of Oryza sativa with 6 samples.

Results

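The genes described here are those of the RNA silencing machinery of rice: Argonaute proteins (AGO), Dicer-like ribonucleases (DCL), double-stranded RNA-binding proteins (DRB) and RNA-dependent RNA polymerases (RDR). They were chosen by name, with earlier results of these data known. Their symbol or synonym, without a prefix Os, was AGO, PNH, MEL1, DCL, DRB, RDR, HEN1 or SHL with a member number or letter. The gene table held 28 such genes, against 17905 annotated genes with a probe set on the array. One of them, SHL3, is also listed as DEK1 and ADL1, names of a calpain-type protease, and was left out of all counts. Of the remaining 27 genes, 25 had a probe set, and each was read by its probe set of highest mean signal. AGO7 and DRB7 had none listed. No gene matched by the names DCL1, DCL3, RDR1 or HEN1, and these were not analysed here.

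The samples were young leaves, harvested 11 days into growth, of the indica variety Minghui63, and transcripts were read on the Affymetrix rice genome array. The controls were 3 samples of untransformed Minghui63. The other 3 samples were Minghui63 plants carrying a hairpin construct, an inverted repeat of 412 bp of the 3' untranslated region of OsSRT1, a sirtuin deacetylase gene. Titles name them transgenic lines LM1, LM2 and LM3, given below as RNAi replicates 1 to 3, without saying whether each number is an independent transformant. There was no sample with an unrelated hairpin, so the presence of a hairpin and the loss of its target cannot be told apart. No probe set was named OsSRT1, so the knockdown itself was not checked here.

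RNA silencing starts from double-stranded RNA, such as the stem of a microRNA precursor, the folded transcript of an inverted repeat, or the product of an RNA-dependent RNA polymerase. A Dicer-like enzyme, often helped by a double-stranded RNA-binding partner, cuts it into small RNA duplexes. An Argonaute protein keeps 1 strand and uses it to find matching transcripts, which are cleaved or kept from translation, or matching DNA, which is methylated. In leaves these steps serve leaf shape, transposon silencing and defence against viruses, and they also carry out the silencing that a hairpin transgene sets off.

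Signals below are the deposited intensities, scaled so that each array had a trimmed mean of 500 (arbitrary units). Log2 fold changes are RNAi over control on log2(signal + 16), which understates changes of low genes. A gene passed at a Benjamini-Hochberg adjusted p under 0.05 in limma's moderated test, fitted and adjusted over 28597 probe sets. The arrays were comparable after scaling, with medians of 40.16 to 46.13, but control replicate 3 had been deposited at a scale of 500.1 against 99.86 to 117.8 for the other arrays. By hybridization date, all control arrays were in run 1 and all RNAi arrays in run 2, and all controls were scanned before the RNAi arrays. The effects of run, of scan order and of genotype cannot be told apart. Leaf markers were high in every array, with summed signals of 14 probe sets of 191000 to 216000 in controls and 181000 to 202000 in RNAi arrays. Of 13 tested, 1, PORA, rose (7.69%, against 2.1% of all tested probe sets). Of these 13, 2 were higher and 10 lower, with a median log2 fold change of -0.08. Summed signals of the lists for dividing cells (2700 to 2770 and 2510 to 3120), shoot apex (1920 to 2140 and 1980 to 2340), seed (1360 to 1520 and 1330 to 1510) and anther (213 to 317 and 202 to 301) overlapped between the groups. The shoot apex regulator OSH1 was at 13.4 and 6.16 on average, and the seed storage protein gene GLUA1 at 1.89 and 1.01. Other members were high and made up most of these 2 sums. They were OsWOX13 (1230 and 1240) and FON1 (501 and 603) for shoot apex, and GLUA2 (1350 and 1320) for seed. The list for root, 3 probe sets, summed to 158 to 201 in controls and 350 to 444 in RNAi arrays, through the phosphate transporter gene OsPT11. OsPT11 rose from a mean of 23.9 to 286 (limma adjusted p = 0.000727), 1 of 2 tested (50%, against 2.1%). The other root genes had lower means in RNAi arrays, HKT8 (42 and 18, not tested) and OsWOX11 (117 and 97.1, overlapping groups). The part of OsPT11 in the results below was not tested.

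Of the silencing genes, only DRB2 passed the threshold, and it was higher in all RNAi arrays. Of 25 genes with a probe set, 23 passed the signal filter and were tested. DRB2 rose, none fell and 22 did not pass, so 1 of 23 (4.35%) was called, against 2.1% of all tested probe sets (601 of 28597) and 2.33% of annotated genes read by 1 probe set each. In the direction of higher signal that background was 1.09%. The median log2 fold change of the 23 genes was 0.11, with 13 higher and 10 lower, and that of all tested probe sets was 0.03. The RNAi values lay wholly outside the range of the control values at 6 of 23 genes (26.1%), close to the 22.4% of all tested probe sets. At an unadjusted p under 0.05 there were 6 of 23 (26.1%), against 15.6%. In bulk leaf RNA, fewer cells that express a gene and less RNA per cell cannot be told apart.

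**Figure D1:**
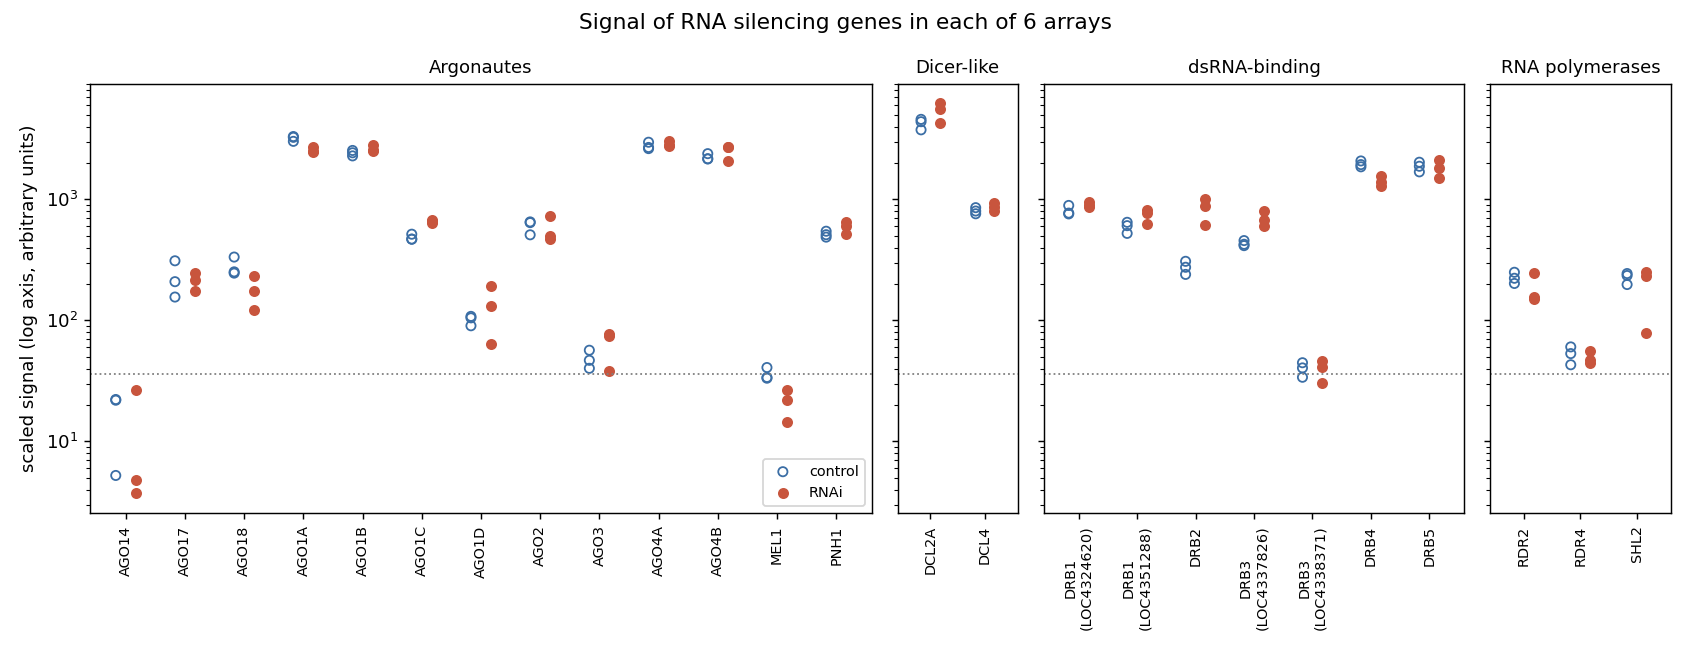
Scaled signal on a log axis of the 25 genes with a probe set in each of the 6 arrays, grouped by class, with controls as open circles and RNAi samples as filled circles. The dotted line at 36.1 is the lowest signal, as a mean over arrays, of any tested probe set. DRB2 is the gene with the widest gap between the groups, with controls from 240 to 308 and RNAi samples from 613 to 1000.

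Among the double-stranded RNA-binding proteins, DRB2 rose, another gene was higher and a further one lower in every RNAi array without passing. These proteins hold the RNA duplex for a Dicer-like enzyme, and in Arabidopsis different members serve different Dicer-like enzymes. The gene table gives the rice names DRB1 and DRB3 to more than 1 gene each, so locus numbers are added. Rice gene numbers need not match those of Arabidopsis.

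DRB2 (LOC4347527, also listed as DRB5) had signals of 275, 240 and 308 in control replicates 1, 2 and 3. In RNAi replicates 1, 2 and 3 it had 1000, 613 and 884. The lowest RNAi value was thus well above the highest control value, and the groups did not overlap. The means were 275 ± 33.8 and 833 ± 200 (SD, n = 3 each), a 2.88-fold difference on the log2(signal + 16) scale. The log2 fold change was 1.52 ± 0.21 (SE, 95% interval 1.05 to 2; limma adjusted p = 0.0078). In Arabidopsis, the protein of this name takes part in microRNA production and in translational repression by microRNAs. By p-value DRB2 stood at place 179 of the 28597 probe sets. Among the 312 higher calls it stood at place 184 by size, so it was not among the larger rises of the data set.

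Whichever of the 6 arrays was omitted, the rise of DRB2 passed, with log2 fold changes from 1.38 to 1.73 and adjusted p from 0.00606 to 0.0485. It was lost when the intensities were used as deposited, with no scaling, at 0.79 (limma adjusted p = 0.836). The median of all tested probe sets was then -0.52. In that setting control replicate 3 stayed on its deposited scale of 500.1, against 99.86 to 117.8 for the other arrays. The single probe set for DRB2 has a name ending in _a_at, which marks a probe set that reads several transcripts, and no second probe set was there to check it.

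DRB3 (LOC4337826), for which the table also lists the name DRB2, had 457, 415 and 426 in the controls. In the RNAi arrays it had 797, 674 and 598. Every RNAi value was above every control value, as at 12.5% of all tested probe sets. This difference, 0.65 ± 0.16 on the log2 scale (95% interval 0.28 to 1.01), missed the threshold (adjusted p = 0.089). No alternative setting brought it past the threshold, and with no scaling the difference was 0 on the log2 scale.

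DRB4 had signals of 2080, 1940 and 1860 in the controls and of 1400, 1300 and 1560 in the RNAi arrays. In Arabidopsis the protein of this name is the partner of DCL4. All RNAi values were below all control values, as at 9.88% of all tested probe sets, with a log2 fold change of -0.46 ± 0.12 (95% interval -0.75 to -0.18, adjusted p = 0.108).

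The other 4 tested DRB genes had overlapping groups on their probe sets of highest signal. DRB1 (LOC4351288, also listed as RBP and Odb1) had 647, 607 and 524 in controls and 825, 621 and 774 in RNAi arrays, which is 0.31 on the log2 scale (adjusted p = 0.418). DRB1 (LOC4324620) had 0.16, with signals of 759 to 892 and 858 to 946, and its other tested probe set, on which all RNAi values were above all control values, had 0.39 (adjusted p = 0.296). DRB1 of Arabidopsis, also called HYL1, works with DCL1 on microRNA precursors. DRB5 (LOC4348920, also listed as DRB6) differed by -0.05 on the log2 scale, with an interval of -0.4 to 0.29. DRB3 (LOC4338371) lay near the lower limit of the tested signals, at 33.9 to 44.7 in controls and 30.2 to 46.5 in RNAi arrays, with -0.02. Its probe set and that of DRB1 (LOC4351288) have names of 1 series, and the latter ends in _x_at, which marks probes shared between transcripts.

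The Argonaute genes, the class with the most members, showed no call. Of 14 genes 13 had a probe set and 11 were tested, with 7 higher, 4 lower and a median log2 fold change of 0.12 in a range from -0.64 to 0.44. At an unadjusted p under 0.05 there were 3 of the 11 (27.3%), namely AGO1C, AGO1A and AGO18, against 15.6% of all tested probe sets. Among the tested genes these were also the 3 with groups that did not overlap, against 22.4%.

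AGO1 proteins are the slicers that carry most microRNAs, and rice has several copies of the gene. AGO1A had signals of 3310, 3020 and 3260 in controls and 2710, 2500 and 2470 in RNAi arrays, lower in every RNAi array. AGO1C had 469, 470 and 516 in controls and 669, 682 and 643 in RNAi arrays, higher in every RNAi array. The log2 fold changes were -0.32 ± 0.11 for AGO1A (adjusted p = 0.193) and 0.44 ± 0.14 for AGO1C (adjusted p = 0.17). With no scaling both were lower, at -0.94 and -0.19.

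AGO1B had 2540, 2290 and 2430 in controls and 2560, 2840 and 2500 in RNAi arrays, with overlapping groups and a log2 fold change of 0.12 (95% interval -0.13 to 0.37). Its other tested probe set had 0.21. AGO1D was low and uneven in the RNAi arrays, at 63.9, 191 and 132 against 90.3 to 108 in the controls, with 0.21 and a wide interval of -0.58 to 0.99. Without RNAi replicate 2 its log2 fold change was -0.1. PNH1, the relative of Arabidopsis PINHEAD (AGO10), which keeps microRNA miR166 from AGO1 in the shoot tip there, had 546, 488 and 511 in controls. It had 518, 603 and 653 in RNAi arrays, with a log2 fold change of 0.19 (95% interval -0.16 to 0.54).

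A difference between paralogues within an array does not depend on the factor by which that array was scaled, apart from the 16 added. These pairs were chosen after their values were seen, so the differences are described without a test, and as they come from different probes only their change between groups can be read. On the log2 scale AGO1C minus AGO1A was -2.78, -2.64 and -2.62 in the controls and -1.99, -1.85 and -1.92 in the RNAi arrays. The shift was 0.76, with SDs of 0.08 and 0.07 within the groups. DRB2 minus DRB4 shifted by 1.99, from -2.77 ± 0.21 to -0.78 ± 0.3 (SD, n = 3 each). DRB2 minus DRB3 (LOC4337826) shifted by 0.88, from -0.63 ± 0.16 to 0.25 ± 0.35.

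**Figure D2:**
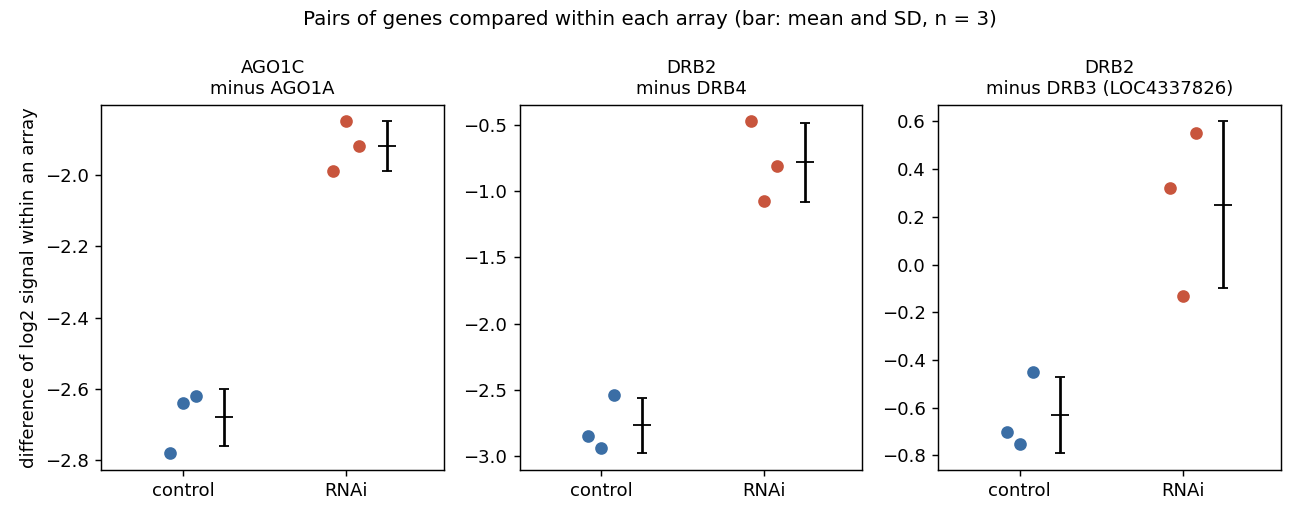
Difference of log2 signal between pairs of genes within each array, with 1 point per array and the mean and SD (n = 3) beside each group; the vertical axes of the panels differ in range and do not start at 0. In each panel all RNAi arrays lie above all control arrays, with shifts of 0.76, 1.99 and 0.88.

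AGO18, a cereal Argonaute that in rice holds microRNA miR168 away from AGO1 during virus infection, had 252, 246 and 334 in controls. The RNAi arrays had 123, 232 and 174, all below the controls. The log2 fold change was -0.64 ± 0.25 (95% interval -1.21 to -0.06, adjusted p = 0.272), and it was -0.42 without RNAi replicate 1. A second AGO18 probe set, too low to be tested, went the other way, from a mean of 21 to 34.4 (0.52, overlapping groups). AGO2, which takes part in antiviral silencing, had 643, 510 and 652 in controls and 470, 730 and 502 in RNAi arrays, with a log2 fold change of -0.1 and overlapping groups. AGO3 lies next to AGO2 in the reference gene order and had 40.2 to 56.7 and 38.3 to 76.8, a log2 fold change of 0.28.

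AGO4A and AGO4B, which carry the small RNAs that direct DNA methylation at transposons, were among the genes measured most precisely. AGO4A had 2690, 2970 and 2630 in controls and 2840, 3030 and 2740 in RNAi arrays. AGO4B had 2390, 2170 and 2160 in controls and 2090, 2690 and 2690 in RNAi arrays. The log2 fold changes were 0.05 (95% interval -0.19 to 0.3) and 0.15 (-0.16 to 0.45), and the groups overlapped for both. AGO17, known from the rice panicle, had 156 to 311 and 176 to 246, a log2 fold change of -0.04. MEL1, needed in rice germ cells before and during meiosis, was below the filter, with 40.8, 33.3 and 33.8 in controls and 22.1, 14.4 and 26.5 in RNAi arrays, all below the controls. AGO14 was also below it, at 5.23 to 22.2 and 3.73 to 26.5. Neither was tested in the fit described, and with no filter their adjusted p were 0.696 and 0.862.

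Both Dicer-like genes had higher mean signals in the RNAi arrays, with overlapping groups, and neither passed. DCL2A, which in plants makes secondary small interfering RNAs, had 4590, 3760 and 4390 in controls and 5640, 6250 and 4260 in RNAi arrays. RNAi replicates 1 and 2 were above all controls and RNAi replicate 3 lay within their range. The difference was 0.33 ± 0.15 on the log2 scale (95% interval -0.02 to 0.68, adjusted p = 0.352). The probe set's name ends in _s_at, which marks probes shared between transcripts, so reads of a close copy cannot be separated from it. Its other tested probe set had 0.61 (adjusted p = 0.278). DCL4 (also named SHO1), which in rice cuts long duplexes such as those of inverted repeats, had 855, 761 and 802 in controls and 941, 868 and 799 in RNAi arrays. It differed by 0.11 on the log2 scale (95% interval -0.2 to 0.42, adjusted p = 0.755), an interval that leaves out a change of 2-fold in either direction. With no scaling the 2 log2 fold changes were -0.31 and -0.51.

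All 3 RNA-dependent RNA polymerase genes had lower mean signals in the RNAi arrays on their probe sets of highest signal. The median log2 fold change was -0.29, and none passed. RDR2, which makes the double-stranded RNA for DNA methylation, had 250, 223 and 202 in controls and 151, 157 and 248 in RNAi arrays. RNAi replicates 1 and 2 were below all controls and RNAi replicate 3 was not, and the log2 fold change was -0.29 (adjusted p = 0.602). SHL2 (SHOOTLESS2), the rice counterpart of Arabidopsis RDR6, which starts trans-acting small RNAs and is needed for shoot formation in the embryo, had 244, 235 and 198 in controls. In the RNAi arrays it had 79, 232 and 253, so that 1 array decided the direction. The log2 fold change of -0.38 (adjusted p = 0.668) became 0.1 without RNAi replicate 1. RDR4 had 43 to 60.4 and 44.5 to 55.4, with -0.06. Its second probe set, too low to be tested, went the other way, with means of 3.5 in controls and 26.8 in RNAi arrays.

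**Figure D3:**
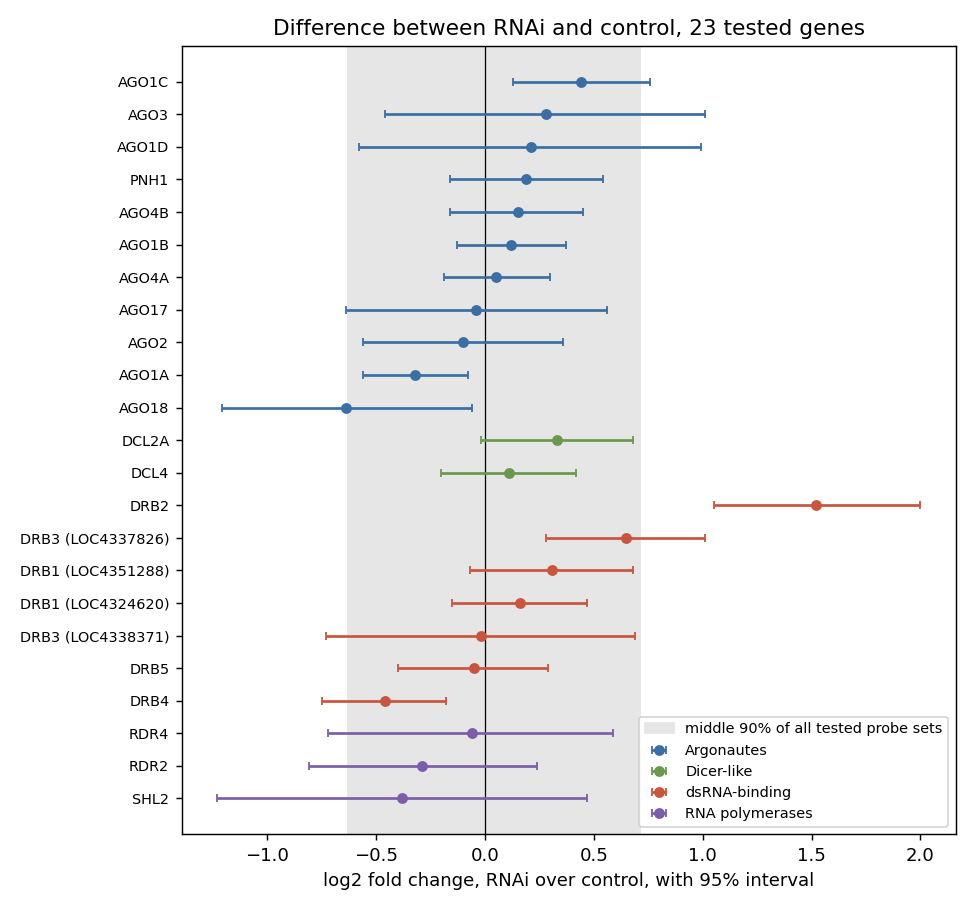
Log2 fold change (RNAi over control) of the 23 tested genes with its 95% interval from limma (3 arrays a group), coloured by class, over a grey band from -0.63 to 0.71 that holds the middle 90% of all tested probe sets. DRB2 at 1.52 lies outside the band with its whole interval, AGO18 at -0.64 lies at its edge, and the other 21 genes have their point estimates inside it.

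The precision of these arrays sets what the 22 genes that did not pass can show. The half-width of the 95% interval ran from 0.24 to 0.85, with a median of 0.36 on the log2 scale. For 18 of 23 genes the interval lay wholly within -1 and 1, so a 2-fold change in either direction was outside it. For 6 of 23 it lay within -0.5 and 0.5. AGO3, SHL2, AGO18, DRB2 and DRB3 (LOC4337826) had intervals that reached past a 2-fold change. Of the 23, 8 were read by probe sets whose names mark several transcripts, among them AGO1B, AGO1C, AGO1D, AGO4B, DCL2A and DRB2.

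None of the tested small RNA partner genes or DNA methylation genes passed the threshold. The 7 tested, together called partners here, were 3 small RNA partners and 4 DNA methylation genes. Of 10 such partners found by name, 9 had a probe set and 7 were tested; 0 passed with limma (2.1% of all tested probe sets), 0 had an unadjusted p under 0.05 (15.6%), and 0 passed with the SAM statistic. Their median log2 fold change was 0.03, in a range from -0.56 to 0.41. SGS3, which protects the template that SHL2-type polymerases copy, had 355, 302 and 347 in controls and 397, 313 and 322 in RNAi arrays (0.03, 95% interval -0.36 to 0.43). The cap-binding genes CBP20 and ABH1 (CBP80), which help in microRNA processing, had 0.16 and 0.01. Among DNA methylation genes, the methyltransferase genes DRM2, DRM3 and MET1 (LOC4334435) had 0.01, 0.22 and 0.41. ROS1C, a DNA glycosylase that removes methylated bases, had 1050, 1350 and 1150 in controls and 425, 1120 and 1040 in RNAi arrays. Its log2 fold change was -0.56 (adjusted p = 0.455), with RNAi replicate 1 far below the rest.

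Among families that small RNAs are known to target in plants, 1 gene passed the threshold. Of 5 auxin response factor genes of the kind cut through trans-acting small RNAs from TAS3, a route through AGO7, SHL2 and DCL4, 0 of 5 passed, with log2 fold changes from -0.21 to 0.14, and with 0 at an unadjusted p under 0.05 (15.6% of all tested probe sets). Of 60 genes in families with microRNA targets, 50 had a probe set and 40 were tested; 1 rose, 0 fell and 39 did not pass. That is 2.5%, against 2.1% of all tested probe sets. The median log2 fold change was 0.15, in a range from -1.22 (LAC24, a laccase gene, adjusted p = 0.257) to 0.93. At an unadjusted p under 0.05 there were 13 of 40 (32.5%), against 15.6% of all tested probe sets, and 14 of 40 (35%) had groups that did not overlap, against 22.4%. The families were taken by name, so some of these genes have no microRNA site.

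The gene that rose was Hox9 (LOC4348919), of the HD-ZIP III class, leaf polarity regulators whose transcripts miR166 targets. It had 1250, 781 and 1040 in controls and 1840, 1960 and 1770 in RNAi arrays, without overlap. The log2 fold change was 0.87 ± 0.18 (95% interval 0.47 to 1.27, adjusted p = 0.0433). This call sat at the threshold. It passed without control replicate 1 (limma adjusted p = 0.0378). Omitting control replicate 2 gave an adjusted p of 0.14, and omitting control replicate 3 gave 0.118. Omission of RNAi replicates 1, 2 and 3 in turn gave 0.0545, 0.138 and 0.111. With the replicate number as a block it was 0.0803. The other HD-ZIP III genes had log2 fold changes of 0.55 for HOX10 (adjusted p = 0.0965), 0.25 for HOX33 and 0.05 for hox32.

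In the PCF family, some of which miR319 targets, PCF8 had 797, 676 and 759 in controls and 1900, 1060 and 1450 in RNAi arrays, 0.93 ± 0.21 on the log2 scale, short of the threshold (adjusted p = 0.0621). It passed without RNAi replicate 2 (1.15, adjusted p = 0.0282) and with only the lower 25% of probe sets left out (0.93, adjusted p = 0.0451). The name of its probe set ends in _x_at. ARF10 (LOC4336419), of the class targeted by miR160, had 430, 547 and 483 in controls and 323, 264 and 247 in RNAi arrays. Its log2 fold change was -0.78 ± 0.18 (adjusted p = 0.071), and it passed without RNAi replicate 1 (-0.88, adjusted p = 0.037). A second gene listed as ARF10 and ARF18 (LOC4341882) had 0.46 in the other direction (adjusted p = 0.141). The SPL genes, many of them targets of miR156, had 5 higher and 4 lower of 9 tested, with a median of 0.04. The GRF genes, targets of miR396, had a median of -0.14 over 8 tested.

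**Figure D4:**
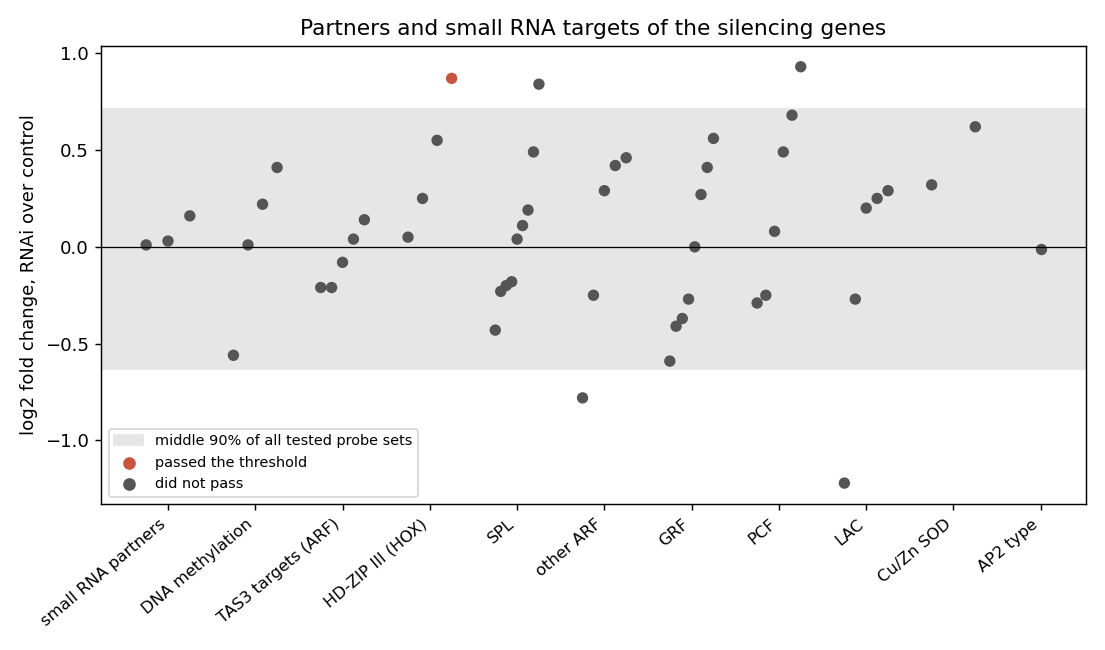
Log2 fold change (RNAi over control) of the tested partner genes and of genes in families with small RNA targets, 1 point per gene, over a grey band from -0.63 to 0.71 that holds the middle 90% of all tested probe sets. Hox9 at 0.87 is the coloured point that passed the threshold, and the TAS3 group runs from -0.21 to 0.14.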

How the data were processed

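The deposited intensity of each probe set is linear and, per the submitters' processing notes, came from GCOS 1.2; the sources used here do not give how probes were summarised or arrays scaled, and detection calls were not used. The deposited fluidics and scanner records (other values, no expression) gave hybridization date, fluidics module and scan date, per the file headers. Runs were numbered by the hybridization date. Arrays were brought to a 2%-trimmed mean of 500, and tests ran on log2(signal + 16). The array's 57381 probe sets include 123 controls and 64 reporters, which were not tested; the upper 50% of the others by mean log2 signal, 28597 in number, were. The test was limma (version 3.58.1, R 4.3.3), with an intensity trend in eBayes, two-sided, adjusted by Benjamini-Hochberg over every probe set tested, and it was tested on simulated data. A statistic of the SAM type, the method the series text names, with 20 label permutations, was an alternative.

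Genes were named through the platform annotation and a RefSeq table of assembly ASM3414082v1. Sequences were not used here. Members and lists were chosen with earlier results of these data known. Values are given for every member past the threshold, for DRB2 and for the 3 members of smallest p in each class, and for partners and targets past the threshold or among the 3 of smallest p in a list; other named values were added after they were seen. List genes whose other names belong to unrelated proteins were left out by name. The replicate numbers share only a number: deviations from the group means correlated at -0.0452, 0.00838 and 0.00207 between same-numbered arrays. Nothing says how far the plants behind the arrays were separate beyond the submitters' word of biological repeats, so each p-value reflects only the spread among these 6 samples, which may be technical, and the number of arrays limits every value.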

Additional observations from a re-analysis of the deposited data

How the results depend on the processing

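DRB2 was past the threshold in 14 of the 15 alternatives in which it could be tested, and no other silencing gene passed in any alternative run. The count of silencing genes called was 0 with no rescaling. It was also 0 without probe sets that read several transcripts, since that leaves out the one for DRB2. In every fit without 1 array it was 1. With the other tested probe set of a gene, where present, the count was 1. DRB2 has no other probe set and kept its own there, so that count does not check it. The count of partners was 0 throughout. Over all probe sets, 601 were called, 37 with no rescaling (64.9% of them higher, against 51.9%), 394 with no filter on low signal, 303 without the trend (61.4% higher), 581 with SAM (57.3% higher), 424 with the replicate block and 233 to 902 when single arrays were omitted. The block changed no call among the silencing genes and ended that of Hox9 (0.0803). Hox9 also missed with 1 added to the signals (0.0515), no filter (0.0687), no trend (0.128) and SAM (0.0754). It passed in limma with quantile normalization (0.0422), 64 added to the signals (0.0376) and only the lower 25% left out (0.0308).

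With no rescaling, which moves the median of all tested probe sets to -0.52, these log2 fold changes turned negative: AGO1B -0.51, AGO1C -0.19, AGO1D -0.32, AGO3 -0.25, AGO4A -0.57, AGO4B -0.48, PNH1 -0.43, DCL2A -0.31, DCL4 -0.51, DRB1 (LOC4324620) -0.46, DRB1 (LOC4351288) -0.31, DRM3 -0.41, MET1 -0.14, CBP20 -0.48, SGS3 -0.55 and ABH1 -0.61. In that setting control replicate 3 stayed on its higher deposited scale. With quantile normalization SGS3 had -0.04 and ABH1 -0.01. Leaving out 1 array turned the sign of some genes, with ranges over the 6 fits of -0.1 to 0.58 for AGO1D, -0.29 to 0.02 for AGO2, -0.26 to 0.21 for AGO17, -0.11 to 0.11 for DRB3 (LOC4338371), -0.17 to 0.08 for DRB5, -0.16 to 0.02 for RDR4, -0.65 to 0.1 for SHL2, -0.07 to 0.09 for SGS3 and -0.05 to 0.14 for ABH1. Of 553 gene values under alternatives, 505 kept direction and side of the threshold. Changes of filter, trend, block or statistic left every log2 fold change as it was, so direction could not turn in those. For reversals other than those by rescaling, the cause was not tested.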

Other observations

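The genes beside DRB2 in the reference gene order did not pass. The neighbour on 1 side, LOC4347526, had mean signals of 2470 and 3640 in control and RNAi arrays (log2 fold change 0.54, limma adjusted p = 0.184), and that on the other side, LOC4347528, had 13200 and 12000 (-0.15, adjusted p = 0.512). The next genes with a probe set had -0.25 (LOC4347525), -0.35 (LOC4347529) and 0.33 (LOC4347530). The order comes from a japonica assembly and may differ in Minghui63. The calpain gene SHL3 (DEK1), which was left out of the silencing genes, had 3870 ± 188 in controls and 3560 ± 136 in RNAi arrays (SD, n = 3 each; log2 fold change -0.12, adjusted p = 0.61). Its second tested probe set went the other way, from a mean of 119 to 177, with all RNAi values above all control values (0.51, adjusted p = 0.293).

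A probe set of RDR4 that was too low to be tested, its second, had mean signals of 3.5 in controls and 26.8 in RNAi arrays, with no overlap. The tested probe set of the gene had -0.06.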
